A study of Mus musculus with 12 samples.

Results

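Islets of POKO mice, which lack both leptin and the γ2 isoform of PPARγ, were compared with islets of wild-type (WT) mice over all genes. The comparison takes every array of each genotype, 3 POKO and 3 WT arrays, which are 6 of the 12 arrays of the series. The other 6 arrays are 3 of ob/ob mice, which lack leptin alone, and 3 of PPARγ2KO mice, which lack PPARγ2 alone. The mice were of a mixed C57BL/6 and Sv129 background. The labels give an age of 4 weeks where the text of the study gives 5 weeks and female sex. POKO mice carry the ob mutation and the deletion of PPARγ2 in every tissue, so a difference in their islets can come from the islet or from the rest of the animal. Each array read RNA of a pool of islets from 3 to 4 mice. The islets were picked by hand after collagenase digestion and cultured overnight. The study compared the genotypes to find islet genes of early insulin resistance that depend on PPARγ2.

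Leptin is the hormone of fat tissue that restrains appetite, and mice without it become obese and insulin resistant. PPARγ is a nuclear receptor that binds fatty acid derivatives and switches on genes of lipid storage, and its γ2 isoform is best known from adipocytes. Pancreatic islets hold the insulin-producing beta cells beside alpha, delta and PP cells, with capillaries and resident macrophages among them. In insulin resistance the beta cells secrete more insulin and their mass can expand.

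RNA was labelled in 1 colour and hybridised to Agilent mouse arrays that hold 41174 probes beside the controls. The median processed signal before normalization was 31.6 to 33.6 on the POKO arrays and 20.9 to 27.0 on the WT arrays, and 61.4 to 61.5% against 54.3 to 57.5% of the spots were well above background. The WT arrays were therefore the dimmer ones, and this difference moves with the genotype. All values below are quantile-normalized log2 signals, and a difference of 1 is a 2-fold change. The genotypes were hybridised on 3 slides, each with 1 array of every genotype, and a genotype took the same position on each slide, so that position and genotype cannot be told apart. The p values measure the spread between these pools, and the number of arrays limits the precision.

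Pparg was lower in POKO islets, and the level of Lep could not check the genotype. The Pparg probe (NM_011146), which the files do not tie to 1 isoform, read 6.41, 7.11 and 7.14 on the POKO arrays and 8.87, 8.98 and 8.85 on the WT arrays. The groups did not overlap. The log2 fold change was -2.01 ± 0.35 (SE), which missed the threshold at adjusted p = 0.0643 (limma, Benjamini-Hochberg over all probes). The PPARγ2KO arrays, at 7.44, 7.27 and 6.60, lay with the POKO arrays, and the ob/ob arrays, at 8.54, 9.77 and 9.61, with or above the WT arrays. Lep read 1.26 to 1.32 in POKO and 1.28 to 1.42 in WT and was well above background on 0 of these arrays. The ob mutation does not remove the transcript, so this level says nothing of the genotype.

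Most of the probes that passed the test between POKO and WT islets were higher in POKO. In a limma fit on all 12 arrays, a probe counted as risen or fallen when it differed by 2-fold or more and its adjusted p did not exceed 0.05. Of the 41174 probes 62 rose (0.151%) and 9 fell (0.0219%). The study reports larger counts in both directions at the same thresholds. Symbols were found for 39 genes that rose and 4 that fell, while 21 risen and 5 fallen probes have no symbol here. The named genes that rose include genes known to be induced by interferon (Ifit2, Ifit3b, Gbp6, Gbp9, Irf5, Trim30a) and genes of leukocytes (Dock2, Vav1, Lax1, Tnfrsf9, Pdcd1lg2, Il1r2). They also include a neuropeptide (Cartpt) and genes of metabolism or hormone transport (Thrsp, Aldh1a3, Fbp2, Serpina7). Kcnj12, an inward rectifier potassium channel, and Hipk2, a nuclear kinase, fell. With the slide as a block 6 probes rose and 1 fell, and all 7 were among the 71. Thrsp, Gbp6 and Kcnj12, with dim probes of Osm and Cdca5, were the named genes that stayed called, and the other genes described below as risen or fallen had adjusted p of 0.0507 to 0.0990 with the block (limma). In all 71 probes the difference had the same sign on each of the 3 slides. That follows wherever the POKO and WT arrays do not overlap, so it is no separate support. By the naming rule a called gene is described below only if the arrays of its called probe did not overlap. For these genes the lack of overlap is therefore no result of its own.

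Much of this list lies close to the background. Of the 62 risen probes 44 were well above background on all 3 POKO arrays, 28 of them on all 3 WT arrays as well, and 32 of the 62 were well above background on no WT array. Of these 32 probes, 14 were well above background on no POKO array either, among them the called probes of Osm and Cdca5, and they are given as counts only. Of the 9 fallen probes 4 were well above background on all 3 WT arrays. Over all probes 6732 had an unadjusted p below 0.05 (limma), of which 2814 were higher in POKO and 3918 lower. Because the count of calls ranged from 1 to 1637 probes with the processing, single genes and gene groups are described by their values on every array.

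**Figure D1:**
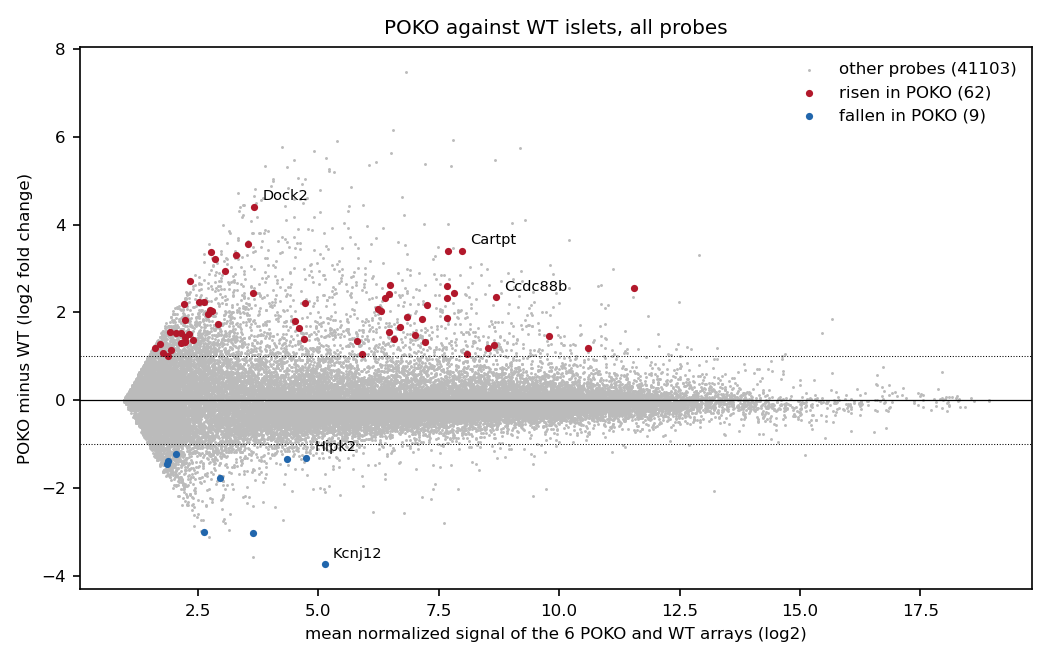
Each point is a probe, with the mean normalized log2 signal of the 6 arrays on the x axis and the log2 fold change of POKO over WT on the y axis. The 62 risen probes are red and the 9 fallen ones blue, dotted lines mark a 2-fold change, and many of the red points lie at the dim end on the left.

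Among the called genes that were well above background on all 6 arrays, Cartpt had the largest rise in POKO islets. It encodes the CART peptide, a neuropeptide of brain and of islet cells. The signal was 10.59, 9.63 and 8.85 in POKO and 5.72, 6.52 and 6.61 in WT. The lowest POKO array was above the highest WT array, although the POKO arrays spread widely. The log2 fold change was 3.41 ± 0.49 (SE, adjusted p = 0.0372, limma), a 10.6-fold difference, and a second probe gave 3.39 (adjusted p = 0.0372). The difference was 4.87, 3.12 and 2.25 on slides 1 to 3.

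Several other secreted peptides of endocrine granules were higher in POKO islets without passing the test. Of 18 neuropeptide and granin genes on the array 1 rose (Cartpt) and 0 fell, where 0.179% of all named genes rose and 0.0116% fell when each gene is read by its brightest probe. At these shares a count of 0 calls in a short list, here or below, says little of its members. In 8 of the 18 all POKO arrays lay above all WT arrays, against 12% of all named genes, and the list median was 0.625 against -0.0603 for all genes. Cck, the gene of cholecystokinin, read 12.25, 12.21 and 11.62 in POKO and 8.82, 7.89 and 8.45 in WT. Its arrays did not overlap, and the difference of 3.64 ± 0.57 (SE) missed the threshold narrowly (adjusted p = 0.0535, limma). Scg2, which encodes secretogranin II, read 13.72, 13.47 and 13.63 against 10.68, 11.24 and 12.18 (adjusted p = 0.0717, limma). Chgb, which encodes chromogranin B, read 16.70, 16.80 and 16.29 against 14.14, 14.60 and 15.49 (adjusted p = 0.0745, limma). In each of these genes WT replicate 3 was the WT array nearest to POKO or in the middle. Npy, Penk and Trh were the 3 members with all POKO arrays below all WT arrays, with differences of -0.72, -0.37 and -0.06, and Trh was well above background on none of them.

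The genes of beta cell identity had no common direction. The list of 25 genes had a median of -0.0015, and 0 rose and 0 fell. Ins2, an insulin gene at the top of the normalized scale on every array, differed by 0.02, and Ins1 read 18.34, 18.28 and 18.16 in POKO against 17.07, 17.39 and 18.38 in WT with overlapping arrays. The list median was 0.566 on slide 1 and -0.858 on slide 3, and without WT replicate 3 it was 0.272. WT replicate 3 had the highest signal of the WT arrays for most of these genes, such as Abcc8, a subunit of the KATP channel, at 14.28 against 12.76 and 13.12. Among the alpha, delta, PP and epsilon cell genes the median was -0.113, with 0.667 on slide 1 and -0.808 on slide 3.

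Within the beta cell list 6 of 25 genes (24%) had all POKO arrays below all WT arrays, a share near the 19.8% of all named genes, and 12 of the 25 had a positive log2 fold change. These genes, apart from Gipr, are given by their values, and nothing about the list is read from them. Slc2a2, which encodes the glucose transporter GLUT2, read 6.72, 6.09 and 5.93 in POKO and 7.10, 7.75 and 8.57 in WT. Ucn3, the gene of urocortin 3 and a marker of mature beta cells, read 6.48, 6.98 and 6.00 against 7.16, 8.48 and 9.50. Mafa, a transcription factor of mature beta cells, read 4.52, 3.81 and 4.39 against 5.43, 6.26 and 6.87. All these arrays were apart, but the WT arrays spread over more than 1 log2 unit in each gene.

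Trpm5, a cation channel of beta cells, had the largest difference of the list at -2.25 ± 0.56 (SE, adjusted p = 0.116, limma). Its signal was 6.42, 6.47 and 5.74 in POKO and 7.55, 8.34 and 9.50 in WT. Hnf4a, a transcription factor behind a monogenic form of diabetes, read 6.48, 6.54 and 6.71 against 7.70, 7.75 and 7.16 (adjusted p = 0.105, limma). Gipr, the receptor of the incretin GIP, was the sixth. The adjusted p of Slc2a2, Ucn3 and Mafa was 0.173, 0.199 and 0.28 (limma), so that 0 of the 6 genes passed the test. Cpe, a prohormone-processing carboxypeptidase, was the only member with all POKO arrays above all WT arrays, at a difference of 1.05 (adjusted p = 0.182, limma).

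Aldh1a3, an enzyme of retinoic acid synthesis that is known as a marker of dedifferentiated beta cells, rose in POKO islets. The signal was 9.05, 9.45 and 8.62 in POKO and 6.43, 6.36 and 6.97 in WT. The groups were separated by more than 1 log2 unit. The log2 fold change was 2.45 ± 0.31 (SE, adjusted p = 0.0314, limma), and the difference was 2.62, 3.09 and 1.65 on the 3 slides. In ob/ob islets Aldh1a3 read 9.52, 9.53 and 8.92, which overlapped with POKO, so the rise is not particular to POKO. Gc, the vitamin D binding protein, an alpha cell gene of the lists, read 12.04, 11.70 and 11.75 against 9.53, 9.94 and 10.81 and did not pass (adjusted p = 0.0901, limma).

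Genes of lipid, thyroid hormone and sugar metabolism were among those that rose. Thrsp, also called Spot 14, is a nuclear protein of lipogenic tissues that rises with fatty acid synthesis. It read 7.92, 7.75 and 7.75 in POKO and 4.91, 5.04 and 5.57 in WT, with no overlap. Its log2 fold change of 2.63 ± 0.23 (SE, adjusted p = 0.00703, limma) is a 6.2-fold difference, and the call held with the slide as a block (limma, adjusted p = 0.042).

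Serpina7, the thyroxine-binding globulin of plasma, read 8.78, 8.78 and 9.36 in POKO and 6.22, 6.21 and 6.66 in WT. Its arrays did not overlap, and the log2 fold change was 2.61 ± 0.39 (SE, adjusted p = 0.0443, limma). Fbp2, the muscle isoform of the gluconeogenic enzyme fructose-1,6-bisphosphatase, read 8.58, 8.64 and 8.60 in POKO and 6.69, 7.05 and 6.46 in WT. The POKO arrays differed by less than 0.1 from each other and lay far above the WT arrays (1.87 ± 0.24, SE, adjusted p = 0.0314, limma). Adm encodes the vasodilator peptide adrenomedullin and belongs to the list of hypoxia and glycolysis genes. It was the single member of those 23 genes that rose, where 0.179% of all named genes did. It read 9.05, 9.20 and 9.10 against 7.85, 7.72 and 8.24 (adjusted p = 0.0398, limma), and in 10 of the 23 genes all POKO arrays lay above all WT arrays, against 12% of all named genes.

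**Figure D2:**
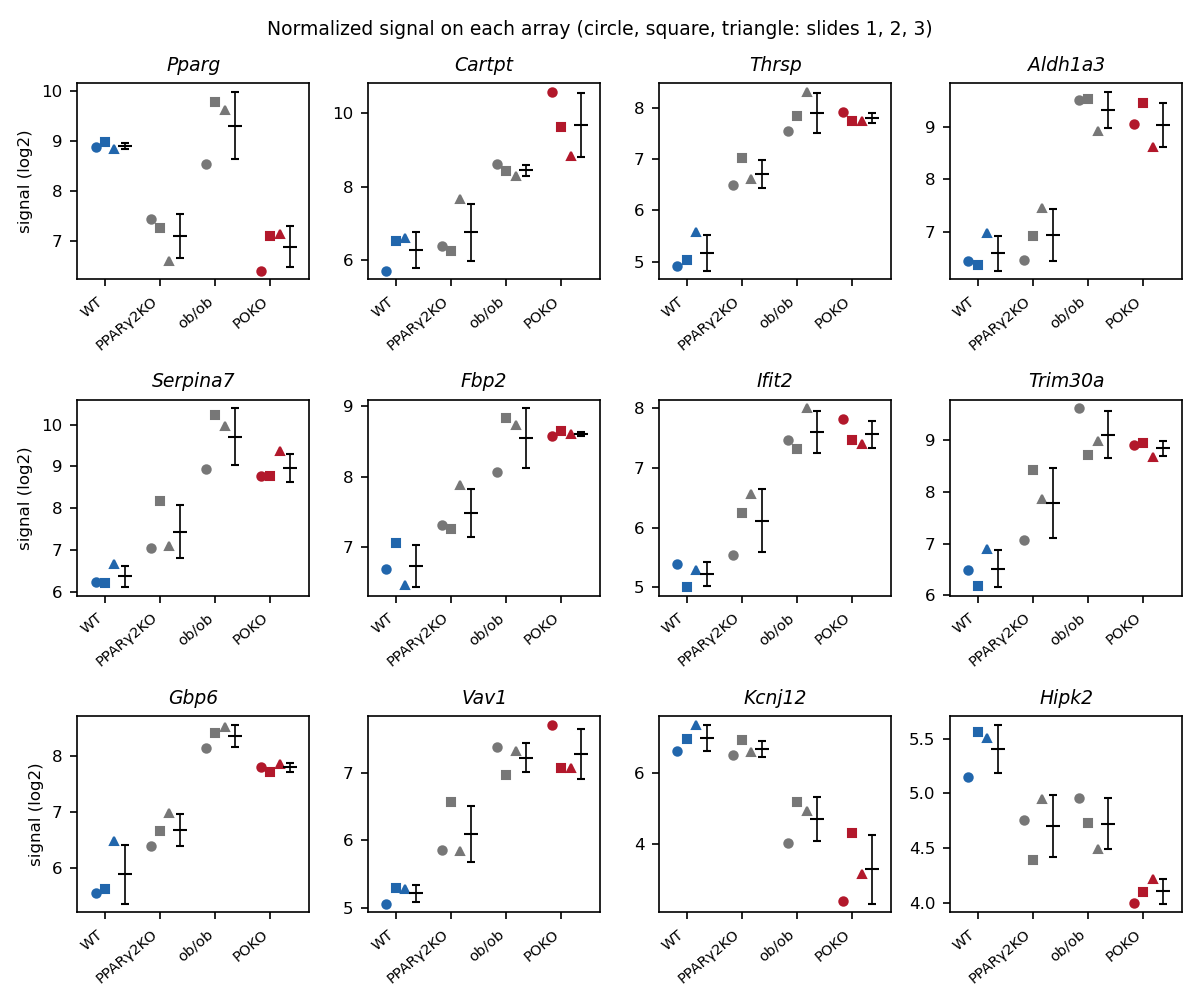
Normalized log2 signal of 12 genes on each of the 12 arrays, with the genotypes on the x axis and the symbol giving the slide; black marks are the mean and SD of 3 arrays. POKO (red) and WT (blue) do not overlap in any of the 12 genes, which for the called genes was a condition for naming them. Pparg, which is shown for the genotype, did not pass the test.

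Interferon-induced genes were higher in POKO islets almost throughout the list. Interferons act through transcription factors on response elements in promoters, and the genes they induce restrict viruses, present antigen or pass the signal on. Of the 29 listed genes on the array all 29 had a positive log2 fold change and 26 had all POKO arrays above all WT arrays, against 12% of all named genes. Read by the brightest probe 1 of them rose (Ifit2), where 0.179% of all named genes did. Ifit3b, Gbp6, Gbp9, Irf5 and Trim30a are not on the list and were picked out after their values were seen. The median was 1.30, with 1.19, 1.83 and 0.795 on slides 1 to 3, and it was 1.43 without WT replicate 3. The summed signal of the list was 36247 to 50829 on the POKO arrays and 14036 to 21398 on the WT arrays.

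Transcription factors come first. Irf5, a regulator of interferon and cytokine genes in macrophages, read 7.70, 7.58 and 7.31 against 5.72, 5.81 and 6.02 (1.68 ± 0.23, SE, adjusted p = 0.0328, limma). Irf7, Irf9 and Stat2, transcription factors on the list, had no overlap either and did not pass, with adjusted p of 0.104, 0.18 and 0.252 (limma).

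Among the effectors, Ifit2, which binds viral RNA in a complex with its relatives, read 7.83, 7.47 and 7.40 in POKO and 5.39, 5.0 and 5.28 in WT. The groups lay 2 log2 units apart, and the log2 fold change was 2.34 (adjusted p = 0.0229, limma). A second probe, well above background on no WT array, was at least 4.09-fold higher (adjusted p = 0.0211, limma). Ifit3b rose too, at 8.19, 8.44 and 7.63 against 6.36, 5.94 and 6.41 (1.85 ± 0.27, SE, adjusted p = 0.0398, limma). The Ifit genes are close copies of each other, so part of this signal may be shared between their probes.

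Gbp6 and Gbp9 encode guanylate-binding proteins, GTPases that act on pathogen vacuoles. Gbp6 read 7.81, 7.71 and 7.86 in POKO and 5.55, 5.62 and 6.49 in WT, and it stayed called with the slide as a block (limma, adjusted p = 0.047). Gbp9 read 7.59, 7.86 and 7.84 against 6.21, 6.14 and 6.46 (1.49 ± 0.21, SE, adjusted p = 0.0372, limma). Trim30a, an interferon-induced ubiquitin ligase of mice, read 8.90, 8.96 and 8.68 against 6.48, 6.18 and 6.89 (2.33 ± 0.35, SE, adjusted p = 0.0415, limma). Dimmer probes of Gbp9 and Trim30a did not pass (adjusted p = 0.0953 and 0.088, limma). Isg15, Oasl2 and Ifi44 had adjusted p of 0.12, 0.0953 and 0.0745 (limma) at differences of 1.95, 1.76 and 2.10.

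The 250 bases before each RefSeq start (GRCm38.p6) were searched on both strands for GAAANNGAAA, the core of the interferon-stimulated response element. Of 27025 genes with such a window 936 held it (3.46%), and of the 26 interferon list genes with a window 13 did (50%). Among the 22 called genes with a window that were well above background on all POKO arrays 2 held it (9.09%), Trim30a and Ifit3b. A match is a description of the letters and not a site in use. The windows of these 2 genes and of the 3 list genes with a match and the largest differences are given 5′ to 3′ in gene orientation, with the matches in capitals. They are chr7:104465194-104465443 (minus strand, Trim30a), chr19:34607707-34607956 (plus, Ifit3b), chr19:34583279-34583528 (plus, Ifit3), chr4:156200819-156201068 (minus, Isg15) and chr11:58199306-58199555 (plus, Igtp).
Trim30a: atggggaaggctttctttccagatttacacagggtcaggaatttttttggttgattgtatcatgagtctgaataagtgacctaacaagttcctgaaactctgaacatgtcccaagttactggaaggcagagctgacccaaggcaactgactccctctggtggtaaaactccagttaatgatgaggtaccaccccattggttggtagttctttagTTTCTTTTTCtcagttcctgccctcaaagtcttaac
Ifit3b: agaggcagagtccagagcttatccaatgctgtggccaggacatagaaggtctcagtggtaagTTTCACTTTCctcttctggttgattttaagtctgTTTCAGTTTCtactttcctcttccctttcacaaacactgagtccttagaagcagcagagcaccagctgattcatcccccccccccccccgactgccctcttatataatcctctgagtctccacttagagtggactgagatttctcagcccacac
Ifit3: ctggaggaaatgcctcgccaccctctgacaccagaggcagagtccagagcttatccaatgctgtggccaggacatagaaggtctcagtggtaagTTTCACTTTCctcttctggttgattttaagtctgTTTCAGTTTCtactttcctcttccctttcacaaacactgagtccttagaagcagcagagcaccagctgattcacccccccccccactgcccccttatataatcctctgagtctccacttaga
Isg15: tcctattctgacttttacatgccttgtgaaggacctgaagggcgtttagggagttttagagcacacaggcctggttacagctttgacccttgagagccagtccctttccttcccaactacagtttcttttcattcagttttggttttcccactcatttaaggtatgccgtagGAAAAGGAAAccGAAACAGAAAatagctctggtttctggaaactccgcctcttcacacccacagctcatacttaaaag
Igtp: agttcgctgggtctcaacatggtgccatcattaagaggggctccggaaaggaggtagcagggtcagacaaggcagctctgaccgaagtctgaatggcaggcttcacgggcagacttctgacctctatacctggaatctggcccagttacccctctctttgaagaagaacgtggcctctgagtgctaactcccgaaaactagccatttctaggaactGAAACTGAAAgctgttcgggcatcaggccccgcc
In Trim30a and Igtp the match lies close to the start, beginning at position -36 and -34. The windows of Ifit3b and Ifit3 are near copies of each other and carry the same pair of matches, which begins at position -188 in Ifit3b and -156 in Ifit3. The log2 fold changes of Ifit3, Isg15 and Igtp in POKO were 2.19, 1.95 and 1.70, and their adjusted p was 0.0566, 0.12 and 0.0593 (limma).

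Of the T cell genes 19 of 21 and of the B cell genes 15 of 15 had a positive log2 fold change, and 0 passed the test. Of 21 T cell genes 17 had all POKO arrays above all WT arrays, where 12% of all named genes did, and the median log2 fold change was 2.85. Of 15 B cell genes 13 did, with a median of 2.95. Of the T cell genes 10 and of the B cell genes 6 were well above background on no WT array, so that their differences are limits. With such genes set at their limit the medians were 2.28 for T cells and 2.80 for B cells. Under another background correction (normexp) the list medians were 0.483 for T cells and 0.576 for B cells, so their size depends on the processing. The summed signal was 2716 to 5996 in POKO against 1066 to 1296 in WT for T cells and 3523 to 7658 against 1641 to 1789 for B cells. In bulk islets, more cells of a type and more RNA per cell cannot be told apart.

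Cd3d, a chain of the T cell receptor complex, read 9.35, 6.78 and 8.87 in POKO and 1.58, 1.04 and 4.66 in WT. POKO replicate 2 was the lowest POKO array there and in most T cell genes. Lat, the adaptor of T cell receptor signalling, read 8.44, 5.99 and 7.89 against 3.48, 1.72 and 2.75, so that POKO exceeded WT at least 12.4-fold (adjusted p = 0.0744, limma). The brightest probe of Cd3e went the other way, with 7.34, 7.40 and 7.43 against 8.25, 8.33 and 8.08, and Cd4 overlapped. Of the B cell genes, Cd79b, a chain of the B cell receptor, read 11.30, 10.24 and 9.72 in POKO and 5.29, 4.34 and 5.67 in WT (adjusted p = 0.12, limma), and Pou2af1, a B cell coactivator, was at least 19.7-fold higher (adjusted p = 0.118, limma). In the B cell genes named here POKO replicate 1 was the highest array.

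Of 26 leukocyte signalling genes 25 had all POKO arrays above all WT arrays, again beside 12% of all named genes, with a median of 2.64. By the brightest probe 1 of them rose, Lax1, where 0.179% of all named genes did. Of 11 MHC class II genes 10 had all POKO arrays above all WT arrays, with a median of 2.61. With dim genes at their limit these medians were 2.20 and 2.33, and with normexp background correction the list medians were 0.67 and 0.456. Glycam1, a ligand of L-selectin on vessels of lymph nodes, read 6.56 ± 2.40 in POKO and 1.23 ± 0.39 in WT (SD, n = 3 arrays), at least 6.7-fold higher (adjusted p = 0.119, limma). Glycam1 belongs to a list of 9 lymph node and germinal center stroma genes. Of these 9 genes 3 had all POKO arrays above all WT arrays and 2 below, where 12% and 19.8% of all named genes did. The list median was 0.735, or 0.153 with dim genes at their limit. The summed signal of this list was lower in POKO, at 263828 to 276769 against 292126 to 298543 in WT. The share of each cell type in the pools was not measured, and the part of these cells in the interferon genes was not tested.

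Several called genes belong to leukocytes and were well measured on both groups. Vav1, an exchange factor of blood cells, read 7.71, 7.07 and 7.08 in POKO and 5.06, 5.29 and 5.28 in WT (2.08 ± 0.24, SE, adjusted p = 0.0229, limma). Its brightest probe gave 1.87 and did not pass (adjusted p = 0.0546, limma). Tnfrsf9, the costimulatory receptor 4-1BB, read 7.31, 7.39 and 7.29 against 4.98, 5.37 and 5.53 (2.04 ± 0.29, SE, adjusted p = 0.0372, limma). Its second probe gave 1.52 and did not pass (adjusted p = 0.1005, limma). The arrays of both genes were fully apart. Il1r2, the decoy receptor of interleukin 1, read 7.68, 7.66 and 7.72 against 4.83, 4.99 and 5.97 (2.42 ± 0.32, SE, adjusted p = 0.0328, limma). A dimmer probe of Il1r2 did not pass (adjusted p = 0.0854, limma). Ccdc88b, a protein of immune cells, read 10.00, 9.60 and 9.97 against 7.19, 7.57 and 7.77 (2.35 ± 0.31, SE, adjusted p = 0.0314, limma). In the called probe of Il1r2 the POKO arrays lay within 0.1 of each other, unlike in the T cell genes.

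Other called genes had WT arrays at the background. Dock2, a Rac activator of lymphocyte migration, read 6.50, 5.36 and 5.76 in POKO and 1.45, 1.50 and 1.46 in WT, at least 4.17-fold higher (adjusted p = 0.0396, limma), and its brighter probe, also well above background on no WT array, at least 2.11-fold (adjusted p = 0.0844, limma). Lax1, a lymphocyte adaptor, was at least 2.19-fold higher, and the homeobox gene Dbx2 at least 1.58-fold. For Pdcd1lg2, which encodes the PD-1 ligand PD-L2, and for Cysltr1, a leukotriene receptor, the limit lies below 1 and no fold is given. A second probe of Cysltr1 overlapped between the groups (difference 0.80, adjusted p = 0.439, limma). Chil6, a chitinase-like gene, and Ocstamp, a fusion protein of osteoclasts, rose too, Chil6 at least 2.82-fold higher. The brightest probe of Ocstamp overlapped between the groups at a difference of -0.16, so its rise rests on the dimmer probe.

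Gng2 (a G protein subunit), Cd38 (an enzyme that consumes NAD), Il4i1 (an amino acid oxidase of myeloid and B cells), Timeless (a protein of the replication fork) and Zmynd15 (a zinc finger protein) rose by 1.55, 1.36, 1.32, 1.41 and 1.04 on the log2 scale. Their adjusted p was 0.0321, 0.0401, 0.0426, 0.0211 and 0.0448 (limma). Other probes gave less: the brightest of Gng2 gave 1.45 (adjusted p = 0.0548, limma), a second of Timeless 0.33 (adjusted p = 0.229, limma), and a second of Cd38 overlapped between the groups.

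Macrophage and dendritic cell genes had a lower median than the T and B cell lists and were spread otherwise over the arrays. Of 23 genes 15 had all POKO arrays above all WT arrays, against 12% of all named genes, 0 passed the test, and the median was 1.42. Ctss, the lysosomal protease cathepsin S, read 11.46, 11.84 and 11.15 in POKO and 8.46, 8.83 and 9.47 in WT (adjusted p = 0.074, limma). Fcgr1, a receptor of immunoglobulin G, read 9.08, 9.80 and 8.43 against 6.21, 6.03 and 6.75 (adjusted p = 0.0805, limma). Here POKO replicate 2 was the highest array, where in the T cell genes it was the lowest. The list median was 0.51 on slide 3, and Cd163 and Siglech were well above background on no array of either group. The summed signal was 11432 to 18269 in POKO and 6094 to 8246 in WT. Against ob/ob islets the median of this list was 0.515 and that of the fibroblast list 0.60, and no gene of either list passed that test.

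**Figure D3:**
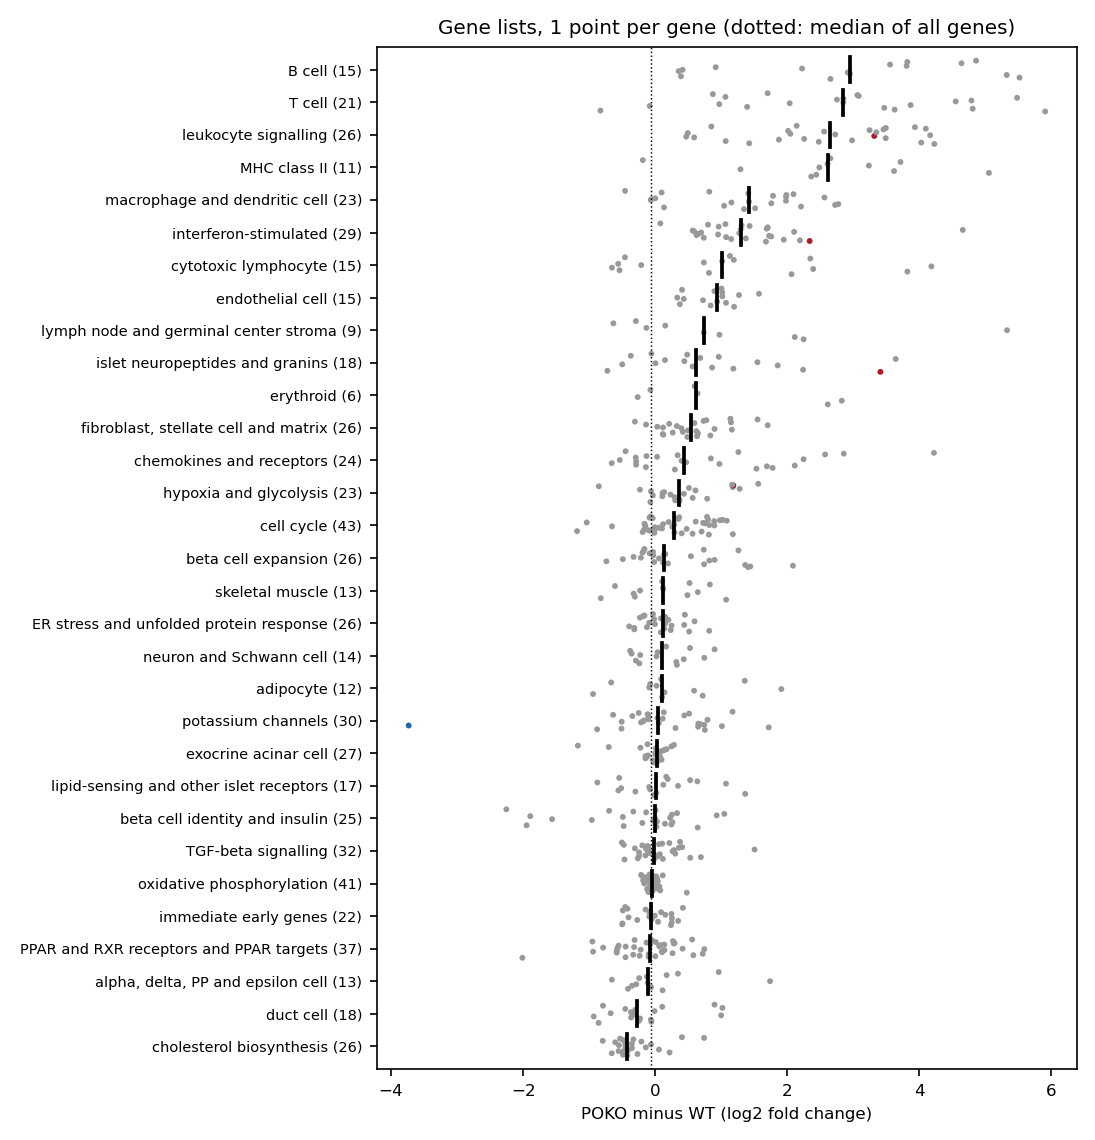
Log2 fold change of POKO over WT for each member of 31 gene lists (1 point per gene, by its brightest probe; number of genes in parentheses), with the list median as a black bar and the median of all genes dotted. B cell, T cell, leukocyte signalling and MHC class II genes lie farthest to the right with medians of 2.61 to 2.95, red and blue points are the genes that were called, and the cholesterol list has the lowest median.

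The gene lists of endothelial, fibroblast, acinar and duct cells did not all differ alike. Of 15 endothelial genes 9 had all POKO arrays above all WT arrays, against 12% of all named genes, with a median of 0.938, and the median was 0.192 on slide 3. Rgs5, a pericyte gene in the fibroblast and stellate cell list, was higher by 1.15 (adjusted p = 0.0844, limma), and the median of that list was 0.545, with -0.0488 on slide 3. The 27 acinar genes, each well above background on at least 1 WT array, had a median of 0.03, with a summed signal of 5209473 to 5455332 in POKO and 5165850 to 5563997 in WT. Krt19, a keratin of duct cells, differed by -0.86 with no overlap (adjusted p = 0.144, limma). Of 18 duct genes 7 had all POKO arrays below all WT arrays and 3 above, where 19.8% and 12% of all named genes did.

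**Figure D4:**
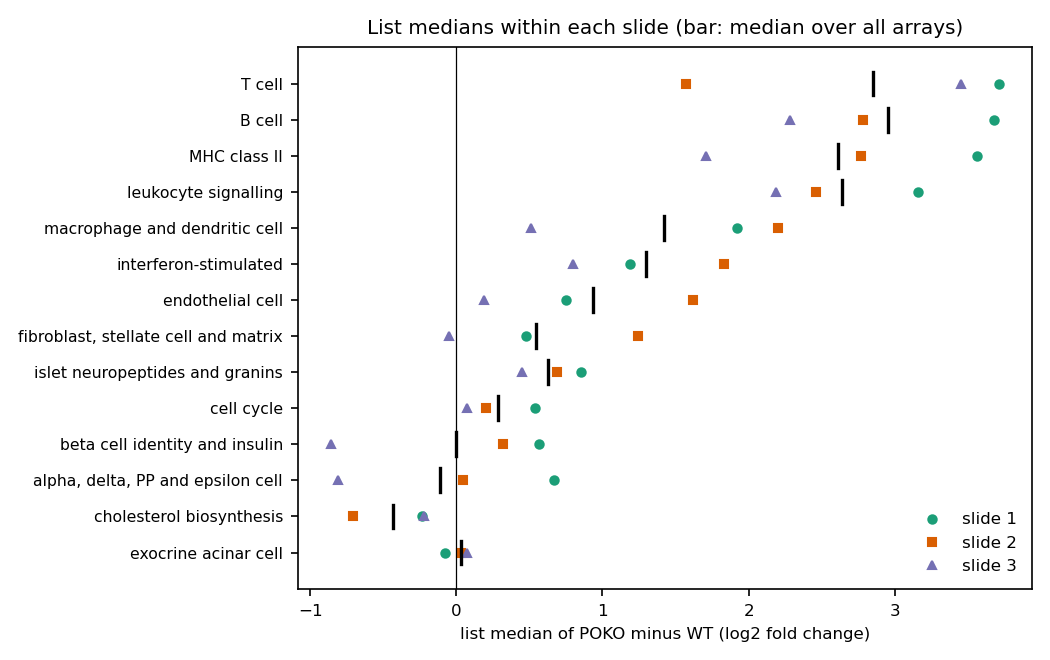
Median log2 fold change of POKO over WT within each slide for 14 gene lists, with the slide given by symbol and colour and the median over all arrays as a bar. The lymphocyte and interferon lists were higher on every slide, while the lists of beta cells and of alpha, delta, PP and epsilon cells changed sign between slide 1 and slide 3.

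Sterol synthesis genes were lower in POKO islets by small amounts. The enzymes of this pathway are induced together by SREBP2 when a cell lacks cholesterol. Of 26 genes 12 had all POKO arrays below all WT arrays, against 19.8% of all named genes, the median was -0.432, and 0 passed the test. The median was negative on every slide, between -0.706 and -0.218. Mvk, mevalonate kinase, read 7.98, 7.46 and 7.98 against 8.60, 8.66 and 8.12 (adjusted p = 0.174, limma). Abca1, the cholesterol exporter, was the member with all POKO arrays above all WT arrays, at 0.74 (adjusted p = 0.191, limma).

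The targets of PPARs had a median of -0.0766, near that of all genes. Of 37 receptor and target genes 0 were called, where 0.179% of all named genes rose and 0.0116% fell. Lpl, lipoprotein lipase, read 9.25, 9.46 and 9.44 in POKO and 9.71, 9.92 and 10.27 in WT, with no overlap (-0.58 ± 0.20, SE, adjusted p = 0.196, limma). Fabp4, a fatty acid binding protein of adipocytes and macrophages, differed by 0.72 with overlapping arrays, and Cd36, a fatty acid transporter, by 0.26. Adipoq, the adipocyte hormone adiponectin, was well above background on no POKO or WT array.

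Cell cycle genes were slightly higher by their median. Their summed signal overlapped, at 11006 to 13437 in POKO and 11366 to 11787 in WT. Of 43 genes 13 had all POKO arrays above all WT arrays, against 12% of all named genes, and the list median was 0.288, between 0.0698 and 0.536 on the slides. Cenpe, a motor of the mitotic spindle, differed by 1.02 (adjusted p = 0.0728, limma) and Plk1, a mitotic kinase, by 0.72 (adjusted p = 0.117, limma). Mki67, the proliferation marker Ki-67, read 7.99, 7.52 and 7.06 in POKO and 5.75, 5.77 and 6.73 in WT, so that the arrays were just apart. Tnfrsf11b, the soluble receptor osteoprotegerin, read 7.96 to 8.14 against 6.34 to 6.81. Sftpd, a lung collectin, read 6.49, 7.21 and 6.53 against 4.74, 3.67 and 5.56. Ffar2, a receptor of short-chain fatty acids, read 9.57, 9.71 and 9.35 against 7.84, 8.03 and 8.68. The study chose these 4 genes on the same arrays and lists all 4 at an adjusted p below 0.05 (limma). Its methods mention a group with fewer arrays than here. Here the 4 genes had no overlap, and all missed the threshold. In the order named their adjusted p was 0.0844, 0.0745, 0.107 and 0.0841 (limma).

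Kcnj12, the inward rectifier Kir2.2, fell in POKO islets and had the largest fall of the called probes. The signal was 2.37, 4.31 and 3.12 in POKO and 6.63, 6.98 and 7.38 in WT. The groups were more than 2 log2 units apart, and 1 POKO array was well above background. The log2 fold change was -3.73 ± 0.47 (SE, adjusted p = 0.0314, limma), and the call held with the slide as a block (limma, adjusted p = 0.042). It was the only one of 30 potassium channel genes that was called, where 0.0116% of all named genes fell and 0.179% rose. Hipk2 read 4.00, 4.10 and 4.22 against 5.15, 5.56 and 5.51 (-1.30 ± 0.18, SE, adjusted p = 0.0328, limma), and its brighter probe gave -0.67 (adjusted p = 0.291, limma).

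Few probes passed a direct test between POKO and ob/ob islets, which does not show that the genotypes are alike. When POKO was tested against ob/ob itself, 1 of 41174 probes (0.00243%) passed the same criteria, a probe of Osm that was well above background on no array, and against PPARγ2KO 2 probes did (0.00486%). The comparisons with WT share the WT arrays, so their values are given side by side: the 62 risen probes had a median log2 fold change of 1.84 in POKO, 1.98 in ob/ob and 0.951 in PPARγ2KO. For the gene lists the median in ob/ob over WT was 1.51 for interferon genes (1.30 in POKO), 3.06 for T cells (2.85), 3.16 for B cells (2.95), -0.756 for sterol synthesis (-0.432) and 0.535 for beta cells (-0.0015). Of the 62 probes 45 overlapped between POKO and ob/ob, 7 had all POKO arrays above all ob/ob arrays and 10 below.

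Cartpt read 8.62, 8.43 and 8.30 in ob/ob, below all POKO arrays. The difference of POKO from ob/ob was 1.24, with a 95% interval of 0.15 to 2.34 from the fit and an adjusted p of 0.531 (limma). Kcnj12 read 4.00, 5.18 and 4.93 in ob/ob and 6.52, 6.96 and 6.62 in PPARγ2KO. Its arrays overlapped between POKO and ob/ob (difference -1.44, interval -2.50 to -0.37, adjusted p = 0.531, limma). Thrsp in POKO differed from ob/ob by -0.10 with an interval of -0.62 to 0.43.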

How the data were processed

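RNA of pooled islets was read on 12 single-colour Agilent arrays, 3 for each of 4 genotypes. Per the file headers, Agilent Feature Extraction 10.1.1.1 made the deposited intensities, which are processed signals after background subtraction. The authors also deposited a table of normalized log2 values of the same arrays, which served as an alternative.

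Here 1639 control spots per array were left out, and the processed signal was quantile-normalized and then put on the log2 scale. After that 919 outlier spots over all arrays were left out, and spots of a probe were averaged. A probe was well above background where at least 1 spot used for it was marked so. R 4.3.3 and limma 3.58.1 (lmFit, eBayes) were used with genotype as the only term on all 12 arrays and Benjamini-Hochberg adjustment over 41174 probes, of which 119 lacked a value on at least 1 array. The procedure was tested on simulated data. Symbols came from matching accessions to RefSeq (GRCm38.p6) for 25097 probes and 17305 genes. The brightest probe stood for a gene in the lists, and the summed level of a list is the sum of the normalized signals of these probes on a linear scale. Limits of the form "at least" set the bright group against the higher of the dim probe and the lowest signal well above background on each array.

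The genes named were Pparg and Lep, 4 genes that the study names, all falls and the 20 largest rises among called genes well above background in the brighter group, and, for each list, called members or the 2 of smallest p with up to 2 markers. The other genes named were picked after their values were seen. Some genes that this rule names are not reported here. The comparison and the lists were chosen with earlier results of these data known.

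Alternatives were the 75th percentile as scale, normexp background correction (on the median spot signal, as a mean signal was not used here), no dim probes, outlier spots kept, 6 arrays only, the slide as fixed or random block, array weights, the authors' values, no fold criterion and leaving out each array.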

Additional observations from a re-analysis of the deposited data

How the results depend on the processing

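The count of probes that passed depended strongly on the processing, while the direction of the 71 called probes did not: all that were tested kept it under every alternative. From 62 risen and 9 fallen probes the counts moved to 303 and 13 with the 75th percentile as scale, 428 and 32 with dim probes left out, 337 and 27 with the POKO and WT arrays alone, 106 and 16 with the slide as a random effect, 1347 and 290 with array weights, and 97 and 12 with the authors' values. With normexp background correction 1 probe rose and 0 fell (limma, 5262 probes at an unadjusted p below 0.05), and the risen probe was among the 71. Keeping outlier spots gave 62 and 9, and dropping the fold criterion 67 and 13. The cause of these differences was not tested.

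The replicate number is the slide. With it as a replicate block 6 probes rose and 1 fell. Deviations of the POKO and WT arrays of the same slide correlated at 0.15, -0.16 and -0.32 over 20422 probes, so the numbers were not taken to pair the samples.

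Leaving out 1 array gave 12 to 515 risen and 1 to 81 fallen probes. The risen count was 12 without POKO replicate 1, 34 without POKO replicate 2, 18 and 20 without WT replicates 1 and 2, 283 without WT replicate 3, 19 and 35 without ob/ob replicates 2 and 3, and 216, 515 and 123 without PPARγ2KO replicates 1 to 3. Of the 71 calls 8 remained without POKO replicate 1, 13 without WT replicate 1 and all 71 without WT replicate 3.

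All 31 called genes among the 85 named by rule kept their direction in 21 settings, as did 53 of the 54 uncalled ones. The exception was Myh2, a muscle myosin, at 0.00533 with normexp. Thrsp passed in every setting but normexp, where its log2 fold change was 0.978. Dock2, Chil6, Lax1, Dbx2, Pdcd1lg2, Cysltr1 and Ocstamp, which had WT arrays at the background, shrank to between 0.0668 and 0.362 with normexp. The limits of the form "at least" were computed with the main processing only. How far the dim WT arrays and the 3 arrays a group limited the calls was not tested.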

Other observations

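Of the 40 named genes nearest to Lep on chromosome 6, 8 had all POKO arrays above all WT arrays and 12 below, with a median log2 fold change of -0.121, where 12% and 19.8% of all named genes did. Of these 40 genes 1 was called, Irf5, which lies 10 genes from Lep. By the brightest probe 0.179% of all named genes rose and 0.0116% fell. Of the 40 nearest to Pparg 3 were above and 6 below, with a median of -0.131, and 0 were called.

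The called genes, counted by any called probe, were 39 risen and 4 fallen among 17305 named genes. They were spread over many chromosomes, and nothing is read from their places. Chromosomes 5, 7 and 11 held 6 each, which is 0.588, 0.395 and 0.434% of the named genes compared there. Chromosome 19 held 5, which is 0.824%.

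Cytotoxic lymphocyte genes had a median log2 fold change of 1.01 over 15 genes, or 0.737 over the 9 that have a value with dim genes at their limit. With normexp the list median was 0.042, and 12 of the 15 were well above background on no WT array. In 7 of them all POKO arrays lay above all WT arrays and in 3 below, where 12% and 19.8% of all named genes did. Of 24 chemokine and receptor genes 11 had all POKO arrays above all WT arrays, with a median of 0.434. The 41 genes of oxidative phosphorylation had a median of -0.0529, near that of all genes, and the 26 genes of the unfolded protein response one of 0.112. In none of these 4 lists did a gene pass the test (limma).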
